A study of Rattus norvegicus with 90 samples.

Results

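The libraries described here come from rat pups that received interleukin-1β (IL-1β) after birth and then, at postnatal day 10 (P10), human mesenchymal stromal cells (HuMSC) into the bloodstream. They are the P12 intravenous libraries at the lowest dose, 20 M cells/kg (HuMSC20, 3 libraries, M being 1000000), and at the highest, 125 M cells/kg (HuMSC125, 3 libraries). Both were set against 3 libraries of IL-1β pups given no HuMSC (injured). They were chosen by title, dose, route and age, and make up 9 of the 90 libraries of the series. All pups were male Wistar Han rats. Recombinant mouse IL-1β was injected into the peritoneum at 20 µg/kg, 2 times a day from P1 to P4 and once on P5. The HuMSC came from umbilical cord and were given in phosphate-buffered saline (PBS), which sham animals received alone. Perfused brains were taken 48 h later without olfactory bulbs and cerebellum, dissociated, and enriched for microglia with CD11b/c beads. The same run held 3 libraries of HuMSC at 50 M cells/kg (HuMSC50) and 3 of PBS pups without IL-1β (control), both used here for comparison. The series was designed to rank doses, times and routes of HuMSC by the microglial transcriptome. Nothing ties a library to its own animal or litter, and p-values here reflect only the spread among samples, which may be technical.

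Microglia are the resident macrophages of the brain. In the developing brain they prune synapses, clear dying cells and answer cytokines such as IL-1β, and systemic IL-1β in newborn rodents is used as a model of the inflammation that accompanies preterm birth. Mesenchymal stromal cells act mainly through what they secrete. They are known to respond to inflammatory signals and to alter macrophage states. Bead enrichment for CD11b leaves some RNA of astrocytes, vessels and other brain cells in such libraries.

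Of 32623 genes, 13874 passed the filter on low counts. The 9 libraries held 17.4 to 42.45 M counts, the highest being injured replicate 3, and the other 8 held at most 24.02 M. In the 5 groups of the run, replicates correlated at 0.9786 to 0.9929 over log2 CPM (a gene's counts in each 1000000 of the scaled library), and no pair was a duplicate. Within the injured, HuMSC20 and HuMSC125 groups the range was 0.9856 to 0.9914. Control replicate 3, which enters the shared estimate of the spread, stood apart from the other 14 libraries of the run on the first principal component (44.41, the others -24.4 to 19.94). The microglial label held in the data: P2ry12, the purinergic receptor that defines homeostatic microglia, lay between 1971 and 2753 CPM in the 9 libraries.

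Low and high dose combined differed from the injured libraries in 5 genes, which is 0.036% of the genes tested (adjusted p under 0.05, edgeR's quasi-likelihood test with Benjamini-Hochberg adjustment). Mlc1, P2rx4, Pfkp and AC134224.3 fell (0.0288%) and Ctdspl2 rose (0.00721%). Mlc1 encodes a membrane protein of astrocyte end-feet, mutated in a leukoencephalopathy with cysts. P2rx4 encodes the P2X4 receptor, an ATP-gated cation channel that microglia raise after injury. Pfkp is the platelet-type subunit of phosphofructokinase, an early committed step of glycolysis. Ctdspl2 encodes a phosphatase of the small C-terminal domain family. AC134224.3 is listed by clone name only, and no role is known for it here.

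The start-site regions of the called genes are shown because these genes moved in the same 6 libraries. The sequences are from RefSeq (build GRCr8), which held 4 of the 5 genes and no entry for AC134224.3. Each runs 5′ to 3′ on the gene's strand, over the 250 bases that end just before the annotated start. The genes were matched by symbol, and Pfkp lies on the minus strand in the deposited table's own build, so whether its window belongs to the counted transcript is uncertain. Capitals mark a GAGGAA motif of PU.1, the myeloid lineage factor, or a GGGCGG GC box, on either strand.
Mlc1, chr7:121946699-121946948, minus strand: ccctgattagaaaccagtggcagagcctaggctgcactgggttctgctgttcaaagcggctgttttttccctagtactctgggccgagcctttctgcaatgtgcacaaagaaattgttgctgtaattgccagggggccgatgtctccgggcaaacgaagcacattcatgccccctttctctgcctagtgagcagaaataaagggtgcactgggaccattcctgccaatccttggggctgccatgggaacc
P2rx4, chr12:39523090-39523339, minus strand: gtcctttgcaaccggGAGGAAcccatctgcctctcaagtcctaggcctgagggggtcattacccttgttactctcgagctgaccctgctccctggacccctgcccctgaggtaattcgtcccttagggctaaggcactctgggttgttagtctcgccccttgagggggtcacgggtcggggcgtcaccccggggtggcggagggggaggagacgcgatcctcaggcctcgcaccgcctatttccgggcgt
Ctdspl2, chr3:129368877-129369126, plus strand: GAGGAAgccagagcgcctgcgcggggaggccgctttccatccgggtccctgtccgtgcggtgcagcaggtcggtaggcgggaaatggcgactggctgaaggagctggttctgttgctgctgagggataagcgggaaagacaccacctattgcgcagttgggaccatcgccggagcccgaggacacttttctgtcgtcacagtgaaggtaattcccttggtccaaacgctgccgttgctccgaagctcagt
Pfkp, chr17:68639563-68639812, plus strand: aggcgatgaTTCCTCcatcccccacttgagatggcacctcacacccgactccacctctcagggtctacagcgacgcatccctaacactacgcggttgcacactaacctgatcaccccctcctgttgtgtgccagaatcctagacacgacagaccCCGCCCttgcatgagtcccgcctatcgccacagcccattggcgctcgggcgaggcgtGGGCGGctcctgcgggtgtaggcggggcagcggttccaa

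The PU.1 letters stood in the windows of P2rx4, 235 to 230 bases before the start, Ctdspl2, 250 to 245 bases before, and Pfkp, 241 to 236 bases before on the other strand. Of 33469 RefSeq rat promoters of the same length, 23.3% held them. Pfkp also held GC boxes 96 to 91 bases before the start on the other strand and 39 to 34 before it on its own. A GC box was in 30.5% of the promoters. None of the 4 windows held the letters of AP-1 (TGANTCA, 6.34% of promoters), the cyclic AMP response element (TGACGTCA, 1.59%), NF-kB (1.3%) or the hypoxia response element (ACGTG, 16.6%). The Mlc1 window held none of the 6 motifs searched on both strands, and its GC content of 53.6% was the lowest of the 4, the others lying between 61.2% and 64%.

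Mlc1 stood at 23.9, 29.98 and 26.2 CPM in the injured libraries. It was 14.6, 15.9 and 15.5 CPM with HuMSC20 and 16.0, 14.7 and 17.0 CPM with HuMSC125. All 6 treated libraries lay below all 3 injured ones, and the treated doses overlapped each other. Mlc1 fell by 0.77 ± 0.09 (SE) on the log2 scale, to 0.585 of the injured level (adjusted p = 0.00177, edgeR). The control libraries held 30.2, 30.2 and 29.7 CPM, so the treated level was below that of pups that never received IL-1β as well. Against control Mlc1 fell by 0.95 ± 0.09 (adjusted p = 0.00011, edgeR), 1 of 179 genes called in that comparison (1.29% of those tested).

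P2rx4 stood at 151, 192 and 152 CPM in the injured libraries. With HuMSC20 it was 96.8, 104 and 115 CPM, and with HuMSC125 106, 107 and 105 CPM. The treated and injured libraries did not overlap, and the HuMSC125 libraries lay close together. P2rx4 fell by 0.64 ± 0.08, to 0.642 of the injured level (adjusted p = 0.00344, edgeR). Control libraries held 108.5, 118 and 117 CPM. The injured minus control difference was 0.52 ± 0.09 and missed the threshold (adjusted p = 0.0822, edgeR), although these groups did not overlap either. Against control the treated difference was -0.11, with a 95% interval from -0.29 to 0.06 (adjusted p = 0.496). The 2 contrasts with injured share the injured libraries, so a high value there moves both.

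Pfkp was 41.8, 39.7 and 45.2 CPM in the injured libraries, 33.5, 27.3 and 25.3 CPM with HuMSC20, and 15.8, 22.3 and 22.4 CPM with HuMSC125. The 3 groups did not overlap. Pfkp fell by 0.81 ± 0.13 (adjusted p = 0.0457, edgeR). It was the sole called gene among the 23 tested members of the glycolysis and hypoxia list, whose median change was near 0 like that of all genes. Control libraries held 27.6, 34.6 and 25.7 CPM, which overlapped HuMSC20 and lay above HuMSC125.

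Ctdspl2 moved the other way, from 36.4, 33.7 and 38.3 CPM in the injured libraries to 52.8, 50.2 and 51.6 CPM with HuMSC20 and 62.4, 62.0 and 62.7 CPM with HuMSC125. The 3 groups did not overlap. Ctdspl2 rose by 0.65 ± 0.10, or 1.57-fold (adjusted p = 0.0457, edgeR). Its control libraries spread from 36.2 to 54.1 CPM and so covered the HuMSC20 range and overlapped the injured range.

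AC134224.3 showed the widest spread of the 5 genes. The injured libraries held 120, 75.4 and 69.9 CPM, the HuMSC20 libraries 15.8, 12.9 and 16.2 CPM, and the HuMSC125 libraries 38.8, 16.6 and 18.7 CPM. AC134224.3 fell by 2.20 ± 0.31, to 0.218 of the injured level (adjusted p = 0.0457, edgeR). The deposited table places it on chromosome 1 from 221158098 to 221158792, on a genome build that the sources used here leave unnamed. AC134224.1 (-0.50 ± 0.20) and AC134224.2 (-0.53 ± 0.20) on the same clone did not pass. The counting of reads that near-identical copies share is also unnamed, so values of such clone-named genes are uncertain.

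Mlc1 and P2rx4 were called under each of the 16 alternatives (adjusted p up to 0.0155 and 0.0188). Among these, each of the 9 libraries and control replicate 3 were left out in turn, but no other library of the run was. Ctdspl2 lost its call when any 1 of the 9 libraries was left out (adjusted p 0.0524 to 0.129). AC134224.3 lost its call without any of 8 of them (0.0619 to 0.114, the exception being HuMSC125 replicate 1), and so did Pfkp (0.0524 to 0.195, the exception being HuMSC20 replicate 1).

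**Figure D1:**
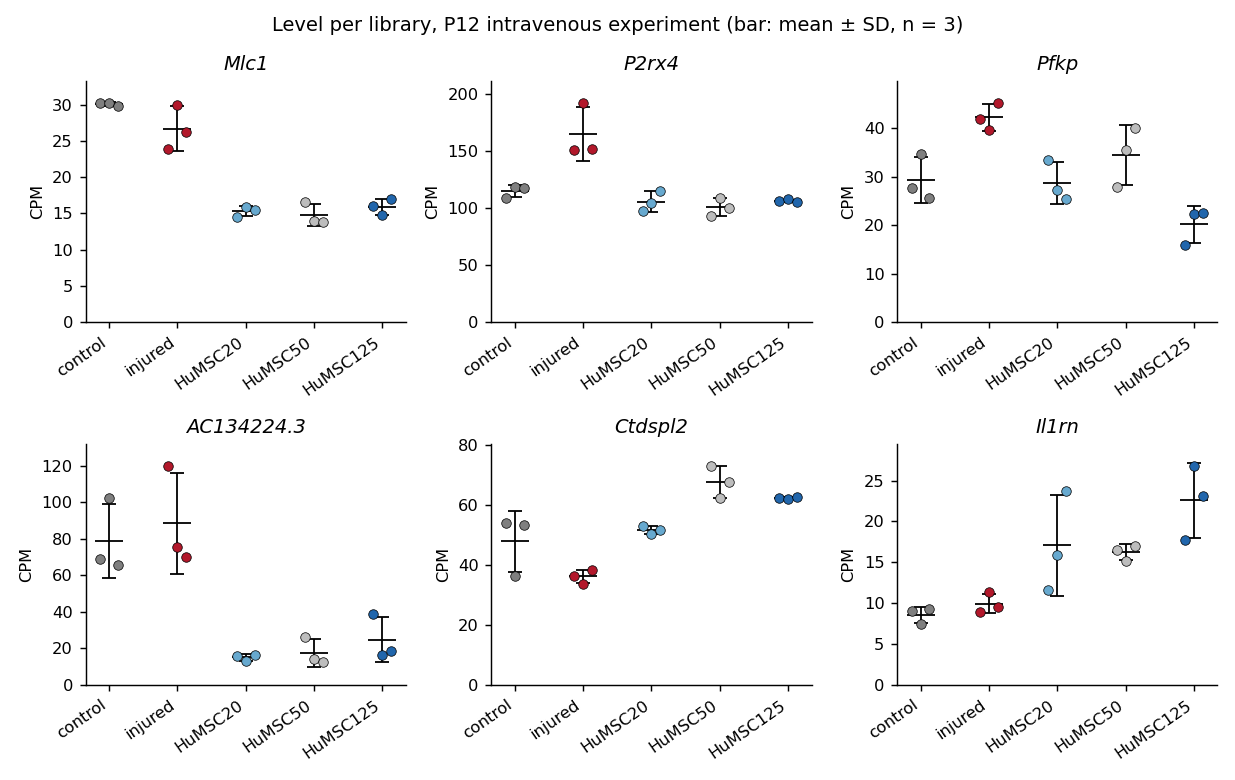
Each panel plots CPM per library (y axis, starting at 0) for the 5 called genes and Il1rn in the 5 groups of the run, with the mean ± SD of 3 libraries as bars. The 6 low- and high-dose libraries lie below the 3 injured libraries for Mlc1, P2rx4, Pfkp and AC134224.3 and above them for Ctdspl2 and Il1rn.

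Several further genes with groups that did not overlap missed the threshold narrowly in edgeR. Tnc, the matrix protein tenascin-C, was at 8.21, 10.5 and 9.57 CPM in the injured libraries and between 3.41 and 6.14 CPM in the 6 treated ones (-0.96 ± 0.17, adjusted p = 0.064). Sparcl1, an astrocyte-secreted synapse organiser, was at 201, 274 and 207 CPM in the injured libraries and between 99.1 and 147 CPM in the treated ones (-0.76 ± 0.13, adjusted p = 0.064). Ttyh1 (-0.50 ± 0.09), S100b (-0.58 ± 0.10) and Gstm1 (-0.46 ± 0.08), all genes that astrocytes express, had adjusted p of 0.064, 0.064 and 0.0701. Each of these 5 genes was below all injured libraries in 6 of 6 treated libraries, as 3% of all genes tested were.

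Il1rn, the secreted antagonist of the IL-1 receptor, stood out among the values above 0. It was at 8.95, 11.3 and 9.57 CPM in the injured libraries, 11.6, 15.8 and 23.8 CPM with HuMSC20, and 17.7, 26.8 and 23.2 CPM with HuMSC125. Every treated library lay above every injured one, a placing that 1.9% of all genes tested had, but the difference missed the threshold in edgeR (0.98 ± 0.19, adjusted p = 0.105). Against control, Il1rn rose by 1.20 ± 0.20 (adjusted p = 0.0168). The ligands themselves spread widely, with Il1b at 0.57 ± 0.28 (adjusted p = 0.56) and Il1a at 1.11 ± 0.44 (adjusted p = 0.496). The count of called genes was 23 when control replicate 3, which is in neither arm, was left out of the fit, and it then included Tnc, Sparcl1, Gstm1 and Il1rn. DESeq2 called 64 genes, among them Tnc, Sparcl1, Ttyh1, S100b, Gstm1 and Il1rn (adjusted p up to 0.00103). The number of genes at an unadjusted p under 0.05 was 1286, or 9.27% of those tested, with 495 above 0 (3.57%) and 791 below (5.7%).

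Markers of astrocytes, vessels, matrix and ependyma lay below 0 as whole lists, although no single member passed the test in edgeR. Of the 15 astrocyte markers tested, 15 were below 0, where 50.3% of all genes were, and 11 had an unadjusted p under 0.05 (5.7% of all genes, on that side). Their median was -0.57 against -0.00 over all genes. Slc7a10, an amino acid transporter (-0.92 ± 0.19, adjusted p = 0.118), Gfap, the astrocyte intermediate filament (-0.84 ± 0.26, 0.404), and Aqp4, the water channel of astrocyte end-feet (-0.70 ± 0.19), had the values furthest from 0 among those named. In such bulk libraries fewer cells of a type and less RNA per cell cannot be told apart.

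The astrocyte markers together made up 910 to 1147 CPM in the injured libraries, 846 to 1138 CPM with HuMSC20 and 556 to 792 CPM with HuMSC125. No defining marker was at 0. The sum was led by Slc1a3, the glutamate transporter also known as GLAST, at 807, 538 and 501 CPM in the injured libraries, so it followed that gene more than the other 14. By dose, 13 of 15 markers were below 0 with HuMSC20 (median -0.42, 51.2% of all genes below 0) and 15 of 15 with HuMSC125 (median -0.67, 48.8% of all genes). Called members numbered 0 in edgeR and 5 of 15 in DESeq2, which called 64 of the 13874 genes tested. In edgeR without control replicate 3, 1 of 15 was called for both doses together, among 23 genes called in all. The part of astrocyte RNA in the values of Mlc1, Sparcl1 and Tnc, which are not in the list, was not tested.

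Vessel and matrix markers lay on the same side, where 50.3% of all genes were (5.7% at an unadjusted p under 0.05). All 15 endothelial markers were below 0 (median -0.38, 4 at an unadjusted p under 0.05), with summed levels of 2100 to 2533 CPM in the injured, 1629 to 2352 CPM in the HuMSC20 and 1530 to 1853 CPM in the HuMSC125 libraries. All 13 mural cell markers were below 0 (median -0.42, 3 unadjusted), among them Vtn (-0.63 ± 0.18) and Higd1b (-0.81 ± 0.23). All 12 fibroblast markers were below 0 (median -0.47, 7 unadjusted), among them the collagen-binding proteoglycan Dcn (-0.73 ± 0.19). All 12 ependymal and choroid plexus markers were below 0 (median -0.56, 3 unadjusted). With 1 library left out that median ran from -0.76 to -0.23. The summed level of this list was 1845 to 3977 CPM in the injured libraries. That overlapped 1400 to 2218 CPM with HuMSC20 and 1474 to 1986 CPM with HuMSC125. None of these 4 lists held a called gene in edgeR as reported or in DESeq2. Without control replicate 3, edgeR called Vtn, a member of the mural and fibroblast lists (-0.60 ± 0.11, adjusted p = 0.041). Neuron markers split, with 10 of 18 below 0 (median -0.06), while 14 of 18 oligodendrocyte markers (median 0.15) and 6 of 11 oligodendrocyte precursor markers (median 0.10) were above 0.

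**Figure D2:**
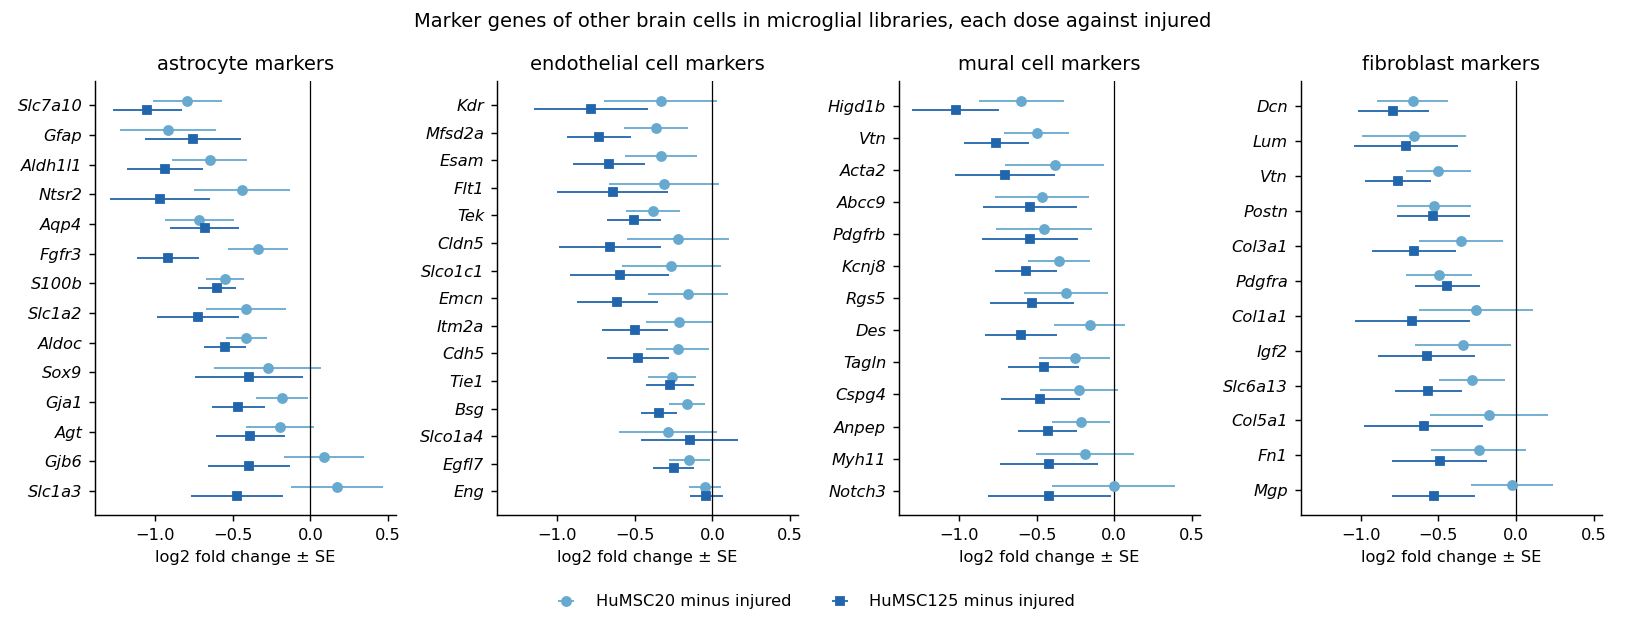
Points show the log2 fold change against injured (x axis) with its SE for markers of 4 other cell types, circles for HuMSC20 and squares for HuMSC125. Nearly every value lies left of 0 and most squares lie left of the circles, with medians over the 15 tested astrocyte markers, not all of them drawn, of -0.42 and -0.67.

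Red cell transcripts lay below 0 too, and the size of their fall depended in part on 1 library. Hbb, a haemoglobin chain, was at 79.6, 77.9 and 246.5 CPM in the injured libraries, 27.3, 79.5 and 20.5 CPM with HuMSC20, and 9.63, 9.37 and 23.3 CPM with HuMSC125. The 7 erythroid markers tested were all below 0 with a median of -2.03, which was -1.11 without injured replicate 3. By dose, 6 of 7 were below 0 with HuMSC20 (median -1.03) and 7 of 7 with HuMSC125 (median -2.82). Against control, both doses together had 3 markers above 0 and 4 below (median -0.065). The median of injured minus control was 1.47. Hbb itself missed the threshold in edgeR (-2.48 ± 0.62, adjusted p = 0.312) and passed it in DESeq2 (adjusted p = 0.038), and its near-identical copies make its count uncertain. These brains were perfused, and residual blood was not measured otherwise.

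No gene that defines microglia was called. Of 24 homeostatic microglial genes tested, 21 were above 0 with a median of 0.10, where 49.7% of all genes were above 0. At an unadjusted p under 0.05, 6 were higher (3.57% of all genes) and 1 was lower (5.7%). P2ry12 (0.08 ± 0.10), Cx3cr1, the fractalkine receptor (0.10 ± 0.07), and Tmem119, a microglial surface protein (0.11 ± 0.29), did not pass. Tmem119 changed its sign when HuMSC20 replicate 1, at 1313 CPM against 443 to 839 CPM in the other treated libraries, was left out. Summed levels of the list were 54890 to 57930 CPM in the injured, 57680 to 63890 CPM in the HuMSC20 and 56370 to 59330 CPM in the HuMSC125 libraries.

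No member of the immediate early, cytokine, antigen presentation or interferon lists was called in edgeR. The immediate early genes, which report recent stimulation and also the dissociation of tissue, were above 0 in 28 of 32 (49.7% of all genes were), with 9 at an unadjusted p under 0.05 and above 0 (3.57% of all genes), 6 with groups apart (1.9%) and a median of 0.21. Nr4a3, an orphan nuclear receptor of this class, was at 1.86, 2.53 and 1.58 CPM in the injured and 3.07 to 5.80 CPM in the treated libraries (1.23 ± 0.32, adjusted p = 0.269 in edgeR and 0.028 in DESeq2). Egr3, a zinc finger factor, was at 209, 283 and 285 CPM in the injured and 339 to 488 CPM in the treated libraries (0.67 ± 0.19, adjusted p = 0.361 in edgeR and 0.0257 in DESeq2). For both genes the groups did not overlap. The list's summed level was 12350 to 16750 CPM in the injured and 14920 to 17150 CPM in the treated libraries, which do overlap.

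Cytokine and nuclear factor kappa B targets were above 0 in 23 of 28 (median 0.08, 3 unadjusted), antigen presentation genes in 17 of 24 (median 0.12, 3 unadjusted), and interferon response genes in 19 of 38 (median 0.00). Over all genes tested, 49.7% were above 0, and 3.57% were so at an unadjusted p under 0.05. Cholesterol synthesis genes were above 0 in 24 of 27 with a median of 0.09. Insig1, which holds back the sterol-sensing machinery, was at 25.2, 23.6 and 29.1 CPM in the injured and 31.1 to 34.5 CPM in the treated libraries (0.34 ± 0.08, adjusted p = 0.156 in edgeR and 0.0215 in DESeq2). Heat shock and unfolded protein genes were above 0 in 24 of 30 (median 0.13), with the chaperone Hspa5 at 0.19 ± 0.07. Cell cycle genes centred on 0 (26 of 43 above, median 0.01), as did the proliferation marker Mki67 (0.00 ± 0.09). Genes of disease-associated and axon-tract microglia were below 0 in 18 of 30 (median -0.04, 4 lower and 1 higher at an unadjusted p under 0.05), and Apoe (0.16 ± 0.14), Lgals3 (0.10 ± 0.11) and Spp1 (-0.33 ± 0.44) did not pass.

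**Figure D3:**
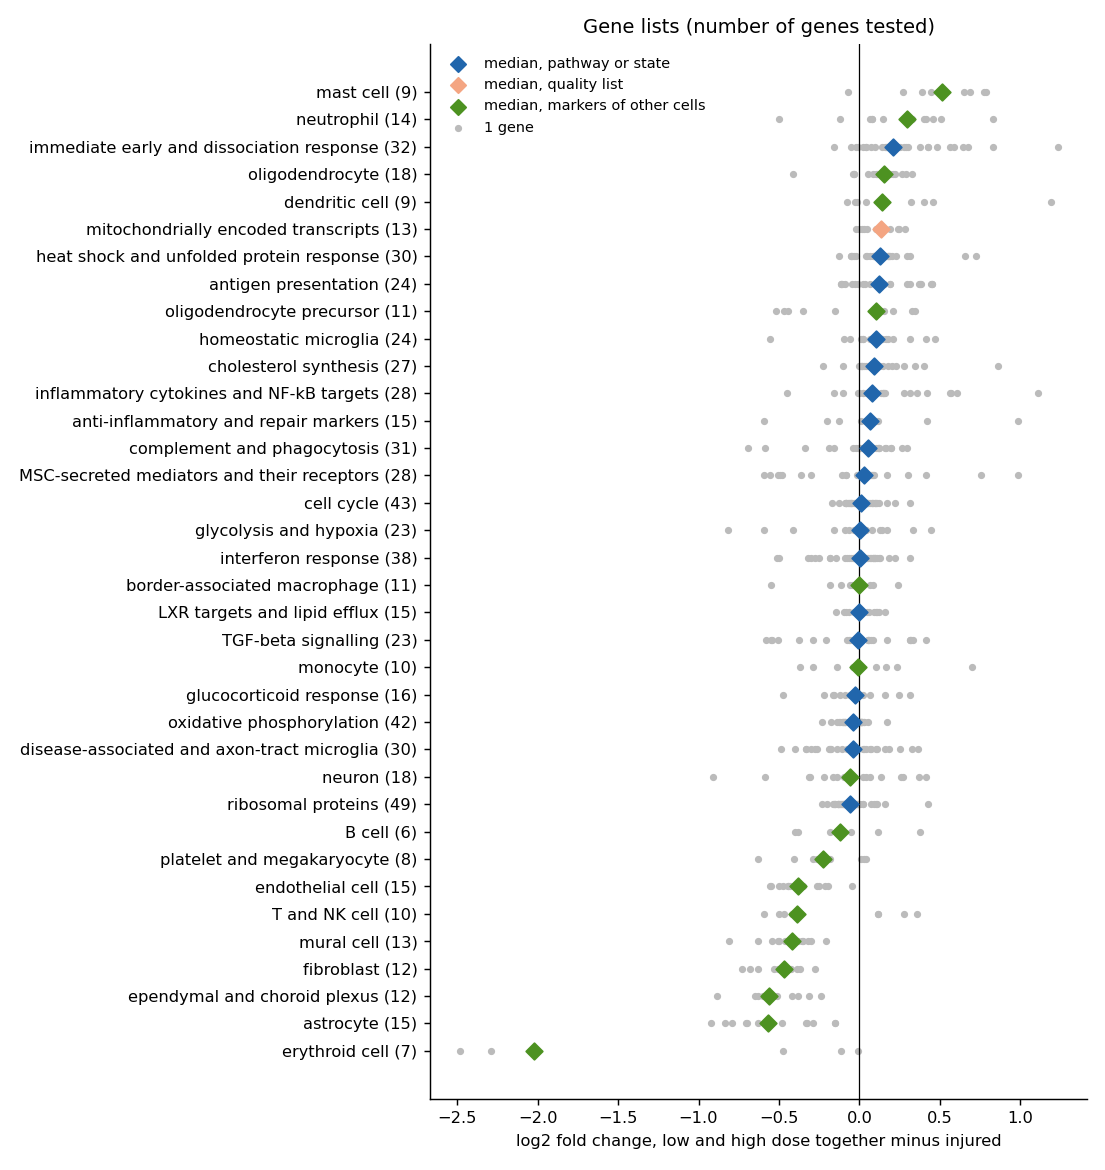
Each line is a gene list with its number of tested genes; grey points are genes and diamonds the list median of the log2 fold change, low and high dose together minus injured (x axis). Medians of astrocyte (-0.57), fibroblast (-0.47), mural (-0.42) and endothelial (-0.38) markers lie to the left, while pathway lists lie between -0.06 and 0.21.

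The low dose on its own called 2 genes (0.0144% of those tested) and the high dose on its own 4 (0.0288%), against the same 3 injured libraries. Mlc1 fell by 0.80 ± 0.10 with HuMSC20 (adjusted p = 0.0118, edgeR) and by 0.75 ± 0.10 with HuMSC125 (adjusted p = 0.0206). P2rx4 fell by 0.64 ± 0.09 with HuMSC20 (adjusted p = 0.0271) and by 0.63 ± 0.09 with HuMSC125 (adjusted p = 0.0206). Pfkp fell by 1.07 ± 0.16 with HuMSC125 (adjusted p = 0.0206), and its value with HuMSC20 was -0.56 ± 0.16 (adjusted p = 0.707). Ctdspl2 rose by 0.78 ± 0.12 with HuMSC125 (adjusted p = 0.0206), and its value with HuMSC20 was 0.51 ± 0.12 (adjusted p = 0.405). AC134224.3 passed at neither dose (-2.56 ± 0.39 and -1.83 ± 0.37, adjusted p = 0.171 and 0.216).

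No gene was called at the low dose when HuMSC20 replicate 1 or 2 was left out, or in a fit of the 9 libraries alone. No gene was called at the high dose without injured replicate 3 or without any one of the 3 HuMSC125 libraries, whereas 28 were called without control replicate 3. Unadjusted p under 0.05 was reached by 747 genes (5.38%) at the low dose and 1243 genes (8.96%) at the high dose.

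Set against each other, the doses differed in 0 genes in edgeR, with 326 genes (2.35%) at an unadjusted p under 0.05, and in 7 genes in DESeq2. The difference of HuMSC125 minus HuMSC20 was 0.05 for Mlc1 (95% interval -0.17 to 0.28) and 0.01 for P2rx4 (-0.19 to 0.21). All these bounds are smaller in size than the fall against injured at either dose. For Ctdspl2 the difference was 0.27 (0.03 to 0.52), for Pfkp -0.51 (-0.85 to -0.17), for AC134224.3 0.73 (-0.12 to 1.58) and for Il1rn 0.40 (-0.03 to 0.84), all at an adjusted p of 0.9999. The intervals are for single genes and are not adjusted over the genes tested.

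Klra2, a killer cell lectin-like receptor, had the smallest p between doses, at 97.4, 104 and 115 CPM with HuMSC20 and 168, 167 and 182 CPM with HuMSC125 (0.71 ± 0.12, adjusted p = 0.298, edgeR). Its injured libraries held 136, 104 and 109 CPM, near the low dose, and its control libraries 117 to 158 CPM. As a member of a family of close copies its count is uncertain. Syt3, a synaptotagmin of vesicle release, was at 27.7 to 31.3 CPM with HuMSC20, 45.2 to 54.5 CPM with HuMSC125 and 26.3 to 28.8 CPM in the injured libraries (0.73 ± 0.16). Cd209f, a C-type lectin of macrophages, was at 4.51, 5.10 and 7.70 CPM with HuMSC20 and 21.3, 15.5 and 12.6 CPM with HuMSC125 (1.51 ± 0.34), but the injured libraries, at 6.83 to 13.3 CPM, overlapped both. Evc2, a cilium protein, went the other way, at 4.84 to 9.75 CPM with HuMSC20 and 2.89 to 3.70 CPM with HuMSC125 (-1.18 ± 0.26).

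Astrocyte, vessel and matrix markers had lower values at the high dose than at the low, without a called gene. All 13 mural cell markers (median -0.23) and 13 of 15 astrocyte markers (median -0.26) lay below 0 in HuMSC125 minus HuMSC20, where 50.4% of all genes did. So did 13 of 15 endothelial and 11 of 12 fibroblast markers (medians -0.28 and -0.26). Oligodendrocyte precursor markers went the other way, with 10 of 11 above 0 (49.6% of all genes) and a median of 0.11. Mitochondrially encoded transcripts, a sign of RNA quality, were above 0 in 13 of 13 in this comparison (median 0.23) and in 13 of 13 in HuMSC125 minus injured (median 0.22, 51.2% of all genes above 0). Their summed level was 59050 to 65280 CPM with HuMSC125, 48360 to 56860 CPM with HuMSC20 and 49970 to 56510 CPM in the injured libraries, and its part in the dose comparison was not tested. Immediate early genes were below 0 in 23 of 32 (median -0.15). Their medians against injured were 0.33 with HuMSC20 and 0.14 with HuMSC125.

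The middle dose, from the same run, called 3 of the same 5 genes. Against injured, HuMSC50 called 3 genes in all (0.0216%): Mlc1 fell by 0.85 ± 0.11, P2rx4 fell by 0.71 ± 0.10 and Ctdspl2 rose by 0.90 ± 0.12 (adjusted p = 0.00525 each, edgeR). The HuMSC50 libraries held 16.6, 13.9 and 13.9 CPM of Mlc1 and 93.1, 109 and 99.8 CPM of P2rx4. Pfkp, at 27.8, 35.5 and 40.0 CPM, overlapped the injured range. These comparisons share the injured libraries with those of the other doses.

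Low and high dose together differed from HuMSC50 in 0 genes in edgeR, although 2055 genes (14.8%) had an unadjusted p under 0.05 and DESeq2 called 334. The differences were 0.08 for Mlc1 (95% interval -0.12 to 0.27), 0.07 for P2rx4 (-0.10 to 0.25) and -0.52 for Pfkp (-0.81 to -0.23, adjusted p = 0.117). The genes of smallest p included Cln8, a lipid and lysosome factor of the endoplasmic reticulum, at 122 to 135 CPM in the 6 libraries and 98.5, 95.0 and 91.8 CPM in HuMSC50 (0.45 ± 0.07, adjusted p = 0.0614). Gaa, the lysosomal acid glucosidase, was at 338 to 403 CPM against 224, 289 and 244 CPM (0.55 ± 0.09, adjusted p = 0.0614). Enpp2, which makes lysophosphatidic acid and is abundant in choroid plexus, was at 320.5 to 387 CPM against 491, 607 and 672 CPM (-0.75 ± 0.12, adjusted p = 0.0614). None of the 3 overlapped between the groups.

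By list, all 32 immediate early genes lay above 0 in low and high dose minus HuMSC50 (49.4% of all genes did), 18 at an unadjusted p under 0.05 (9.18% of all genes), with a median of 0.36. Their summed level was 10950 to 13110 CPM in HuMSC50 and 14920 to 17150 CPM in the 6 libraries, which did not overlap. Antigen presentation genes were above 0 in 20 of 24 (median 0.41, 9 unadjusted) and interferon response genes in 33 of 38 (median 0.15, 7 unadjusted). Ependymal and choroid plexus markers were below 0 in 10 of 12 (50.6% of all genes), with a median of -1.01 and 9 at an unadjusted p under 0.05 (5.64% of all genes), and their summed level was 2154, 4705 and 4329 CPM in HuMSC50 against 1400 to 2218 CPM. HuMSC50 replicate 1 thus stood with the other doses, and the part of this spread in the comparison was not tested. The count of called genes was 30 without HuMSC50 replicate 1, 85 without replicate 2 and 62 without control replicate 3.

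The same doses had also been given intranasally at P10, with microglia taken at P12 and their own injured and control libraries. These were sequenced in another run, so route and run cannot be told apart. Each route was therefore set against its own injured libraries, and the difference of the effects was tested in a fit of 30 libraries and 14362 genes. The effect of low and high dose together differed by route in 106 genes (0.738% of those tested), 30 with a higher value by the intravenous route (0.209%) and 76 with a lower one (0.529%). Levels in the next paragraphs are scaled over both runs.

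Of the 5 genes called above, 3 differed by route. P2rx4 was at 153 to 194 CPM in the intravenous injured libraries and 99.4 to 117 CPM with HuMSC, but at 108 to 121 CPM in the intranasal injured libraries and 96.2 to 134 CPM with HuMSC. Its effects were -0.64 ± 0.08 by vein and 0.01 ± 0.11 by nose, a difference of -0.66 ± 0.13 (adjusted p = 0.0232, edgeR). The injured libraries of the 2 routes differ in run as well, and the part of their P2rx4 levels in this difference was not tested. Mlc1 was at 24.2 to 30.3 CPM in the intravenous and 33.7 to 63 CPM in the intranasal injured libraries, and its effects were -0.77 ± 0.09 and 0.31 ± 0.16 (difference -1.10 ± 0.19, adjusted p = 0.0111). Pfkp differed by -1.22 ± 0.22 (adjusted p = 0.013), with an intranasal effect of 0.39 ± 0.15. For Ctdspl2 the difference of 0.63 ± 0.20 missed the threshold (adjusted p = 0.137), as did that of AC134224.3 (-2.06 ± 0.63, adjusted p = 0.136).

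Il1rn and the medians of inflammatory gene lists had opposite signs by route. Il1rn was at 9.74 to 12.7 CPM in the intranasal injured libraries, 8.8 to 10.1 CPM with HuMSC20 and 4.27 to 6.25 CPM with HuMSC125 by that route. The intranasal effect was -0.67 ± 0.19 (adjusted p = 0.141), against 0.98 ± 0.19 by vein, and the difference was 1.64 ± 0.27 (adjusted p = 0.0103). Lif, a cytokine of the interleukin-6 family, differed by 1.88 ± 0.35 (adjusted p = 0.0136), and Mmp8, the neutrophil collagenase, by 2.52 ± 0.54 (adjusted p = 0.0295). Both had higher intranasal than intravenous injured levels, at 7.71 to 13.8 CPM against 2.34 to 3.69 CPM for Lif and 7.34 to 14.1 CPM against 2.67 to 3.71 CPM for Mmp8. Nr4a3 and Fosl2 were called among the immediate early genes, of which 31 of 32 had a higher value by vein (median 0.51, 49% of all genes). Cytokine and nuclear factor kappa B targets had a higher value by vein in 26 of 28 (median 0.65). Against injured, their median was 0.08 by vein, with 23 of 28 above 0 and 3 at an unadjusted p under 0.05. By nose it was -0.49, with 23 of 28 below 0 and 13 of these at an unadjusted p under 0.05. The difference for this list thus lay mostly in the intranasal values. The immediate early median was 0.21 by vein and -0.31 by nose.

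Astrocyte, vessel and matrix markers differed by route in the opposite direction. Of 15 astrocyte markers, 14 had a lower value by vein (51% of all genes did), and 6 were called lower, where 0.529% of all genes were, with S100b, Gfap and Aqp4 among them. S100b was at 25.3 to 30.8 CPM in the intravenous injured libraries and 16.4 to 21.4 CPM with HuMSC, and at 23.9 to 43.9 CPM and 38.6 to 64.7 CPM by nose (difference -1.32 ± 0.21, adjusted p = 0.00804, edgeR). Gfap differed by -1.64 ± 0.36 (adjusted p = 0.0338). Mural markers were lower by vein in 13 of 13 with Vtn and Tagln called, fibroblast markers in 13 of 13 with Vtn called, and endothelial markers in 15 of 15 with none called. In the intranasal arm alone, 13 of 15 astrocyte, 13 of 13 mural, 13 of 13 fibroblast and 15 of 15 endothelial markers lay above 0, as 49.8% of all genes did. Tagln was called higher there and the astrocyte marker Slc1a3 lower, as 6 and 48 of 13868 genes were (edgeR). Neutrophil markers (13 of 15) and mast cell markers (8 of 9) had a higher value by vein. Mitochondrially encoded transcripts were above 0 in 13 of 13 by nose (median 0.54) and had a lower value by vein in 13 of 13 (median -0.46). The part of these cells' RNA and of RNA quality in the route difference was not tested.

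The count of 106 was 103 without intranasal HuMSC125 replicate 2. It was 24 with replicate 1 of every group left out, and 0 with replicate 2 or 3 left out. Mlc1, S100b and Il1rn were among those still called without replicate 1.

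**Figure D4:**
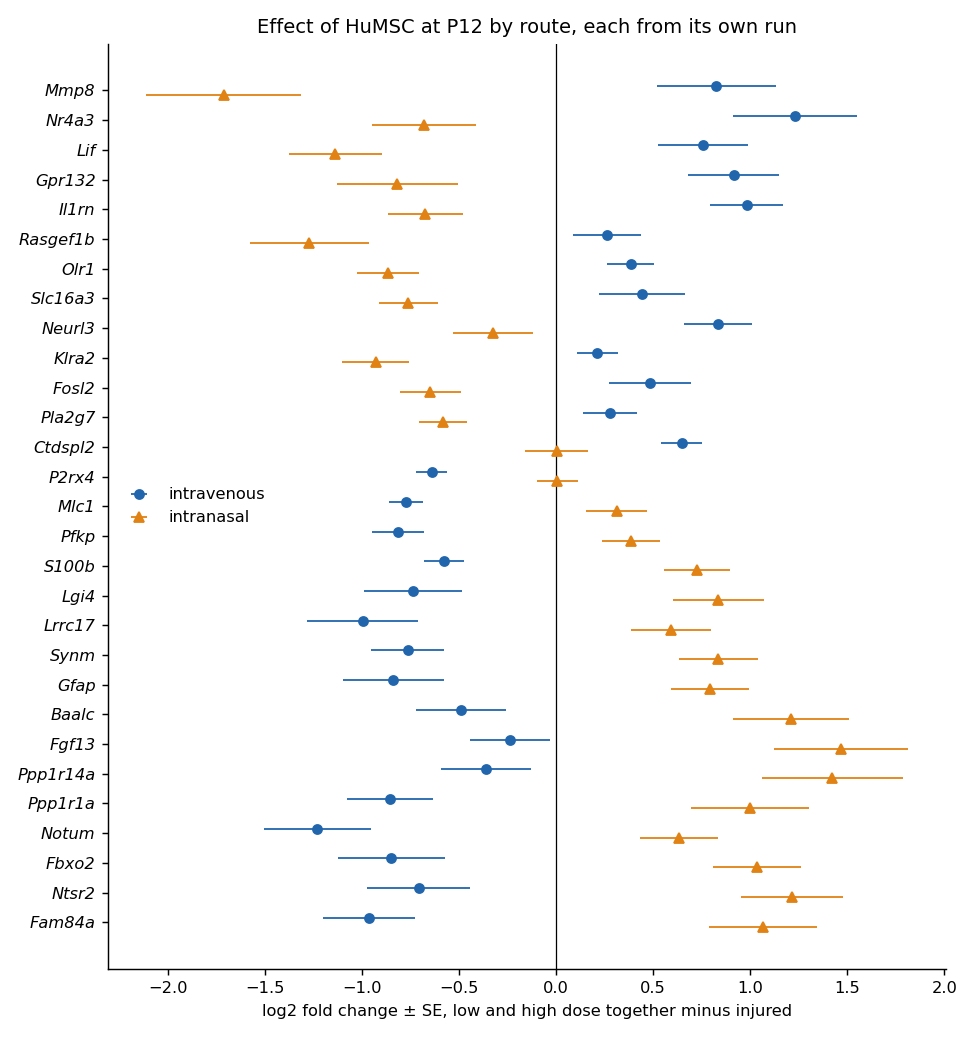
Points show the log2 fold change with SE of low and high dose together minus injured (x axis), circles by vein and triangles by nose, each from its own run. The 2 sets lie on opposite sides of 0 for most genes, as for Il1rn (0.98 and -0.67) and Mlc1 (-0.77 and 0.31), while P2rx4 and Ctdspl2 are near 0 by nose.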

How the data were processed

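Strand-specific polyA libraries (TruSeq Stranded, 75 bp single reads) were sequenced by the submitters, per the labels' protocols. The submitters' processing notes name DESeq2 1.8.1, HTSeq 0.5.3, STAR 2.7.2d and SAMtools. The genome build, annotation, strand setting and treatment of multi-mapped reads are not given in the sources used here. The deposited values are whole-number read counts per gene, not normalized. All rows named a gene. The low- and high-dose libraries were compared with injured, with each other and with HuMSC50 in edgeR 4.0.16 (limma 3.58.1, R 4.3.3): filterByExpr (minimum count 10, total 15), TMM factors, robust quasi-likelihood fits over the 15 libraries of the run, or 30 libraries and 10 groups for the route, and Benjamini-Hochberg adjustment at 0.05. CPM are counts scaled to the TMM-adjusted library size, and every standard error and 95% interval comes from the fit. The test of both doses against injured was also tried on counts simulated from the levels and spread of these libraries. It called 49.3% of the 1.5-fold and 85.1% of the 2-fold changes put in. Alternatives were RLE factors, no filter, replicate block, no robust estimation, DESeq2 1.42.0 and the 9 libraries alone. Libraries of the compared groups and control replicate 3 were also left out 1 at a time, and for the route 1 replicate number of every group.

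The members and gene lists were chosen with earlier results of these data known, so their counts are descriptions. Named genes were all genes called where fewer than 24 were, otherwise the 12 of largest rise and fall with a mean log2 CPM above 1, up to 4 members of each list, and the 10 of smallest p. Of 805 genes in the lists, 767 matched a gene in the table, 7 of them through RefSeq names, and 690 were tested. Promoter sequences are RefSeq's for GRCr8, matched by symbol. Values of 1 list member are not reported here.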

Additional observations from a re-analysis of the deposited data

Results flagged for a closer look

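The effect of low and high dose together differed between the intravenous and the intranasal experiment in 106 genes by the test of the difference itself (edgeR, adjusted p under 0.05). Route and sequencing run cannot be told apart in this design, and with replicate 2 or 3 of every group left out no gene was called. Values here are intravenous minus intranasal log2 differences.

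Higher by vein were the collagenase Mmp8 (2.52), the nuclear receptor Nr4a3 (1.895), the cytokine Lif (1.877), the proton-sensing receptor Gpr132 (1.718), Il1rn (1.64), Rasgef1b (1.517), the oxidised lipoprotein receptor Olr1 (1.235), the lactate carrier Slc16a3 (1.188), Neurl3 (1.14), Klra2 (1.125), the AP-1 member Fosl2 (1.117) and the phospholipase Pla2g7 (0.8466). For both doses together, all 12 had intravenous effects above 0 and intranasal effects below 0, but this did not hold at each dose for every gene. Mean Klra2 by vein was 119 CPM in injured, 108 CPM with HuMSC20 and 175 CPM with HuMSC125. Mean Fosl2 by nose was 13.2, 13.7 and 5.27 CPM in the same order.

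Lower by vein were Fam84a (-2.047), the neurotensin receptor Ntsr2 (-1.937), Fbxo2 (-1.897), the Wnt-inactivating Notum (-1.877), the phosphatase inhibitors Ppp1r1a (-1.871) and Ppp1r14a (-1.799), Fgf13 (-1.72), Baalc (-1.717), Gfap (-1.643), the filament protein Synm (-1.616), Lrrc17 (-1.601) and Lgi4 (-1.588). Of the genes described for the intravenous route, Mlc1 (-1.101), P2rx4 (-0.6613), Pfkp (-1.216) and S100b (-1.316) were called too. Ntsr2, Gfap and S100b belong to the astrocyte list, whose members had a median of -0.84 in the same comparison. Groups of 3 libraries were not tested for single outlying samples.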

How the results depend on the processing

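With 3 libraries a group and uneven depth, small changes could be missed, and only Mlc1 and P2rx4 against both doses were called under every alternative. The cause of the moves below was not tested. RLE factors kept every count of called genes within 1.5 times. Counts below are in the order both doses, HuMSC20, HuMSC125 (each against injured), dose difference, both doses against HuMSC50, and route, reported as 5, 2, 4, 0, 0 and 106. DESeq2 gave 64, 16, 65, 7, 334 and 316. Without the filter the dose difference had 1 and the HuMSC50 comparison 50. Fitting the 9 libraries alone gave 0 for HuMSC20, 7 for HuMSC125 and 1 for the dose difference.

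Chosen after seeing the data were fits without robust estimation (3 for both doses, 1 against HuMSC50), without control replicate 3 (23 for both doses, 28 for HuMSC125, 62 against HuMSC50) and, for the route, without intranasal HuMSC125 replicate 2 (103). Leaving out 1 library at a time gave 2 to 23, 0 to 3, 0 to 28, 0 to 1 and 0 to 85 in the first 5, and leaving out 1 replicate number of every group gave 0 to 24 for the route. The replicate block gave 2 for the dose difference and changed no other count by over 1.5 times. Same-numbered libraries shared only a number: their deviations correlated at -0.153 to 0.0924, 0 of 9 pairs were over 0.1, and 3 of 9 libraries correlated best with their own number.

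Of 2311 gene and list values under alternatives, 2043 kept side and call, 145 lost and 99 gained the call, 8 moved and 16 changed sign. No called gene changed sign. With 1 library left out the log2 change ran for Tmem119 from -0.1931 to 0.2556, Ptgs2 -0.04035 to 0.1895, Mrc1 -0.01974 to 0.09817, Igf1 -0.08611 to 0.3078, Socs3 -0.3145 to 0.03568, Spp1 -0.7108 to 0.3352, Mki67 -0.0776 to 0.07789, P2rx4 between doses -0.04802 to 0.07675, and AC134224.3 against HuMSC50 -0.1044 to 0.5546.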

Other observations

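Mast cell markers, which mark granule-laden cells of the meninges and vessels, lay above 0 in 8 of 9 tested members in low and high dose together minus injured. Their median was 0.51 with 0 called, and 49.7% of all genes lay above 0. Cpa3, the mast cell carboxypeptidase, was at 29.7, 41.3 and 30.2 CPM in the injured libraries, 57.0, 71.5 and 40.4 CPM with HuMSC20 and 54.3, 66.3 and 27.3 CPM with HuMSC125 (0.65 ± 0.31, adjusted p = 0.56, edgeR). The groups overlapped, with HuMSC125 replicate 3 below every injured library. The summed level of the list was 79.7 to 107.5 CPM in the injured, 105.8 to 171.8 CPM in the HuMSC20 and 64.6 to 147.6 CPM in the HuMSC125 libraries. Control libraries held 104 to 197.4 CPM, a range that overlapped each of these groups.

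Of the neutrophil markers, 12 of 14 were above 0 (median 0.29), as 49.7% of all genes were. Mmp8 was at 0.83 ± 0.31 (adjusted p = 0.467, edgeR) and Lcn2 on the other side at -0.50 ± 0.22 (adjusted p = 0.514). Xcr1, the chemokine receptor of cross-presenting dendritic cells, was at 0.68, 1.69 and 1.37 CPM in the injured and 2.42 to 3.53 CPM in the 6 treated libraries, with no overlap (1.19 ± 0.25, adjusted p = 0.124 in edgeR and 0.00457 in DESeq2). Its dendritic cell partners Batf3 (0.46 ± 0.25) and Fscn1 (0.32 ± 0.18) were not called in edgeR.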
